A study of Rattus norvegicus with 24 samples.

Results

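Within the PCB 52-exposed rats of a liver RNA sequencing study, 4 animals, numbered 13 to 16 in the sample labels, were set against the other 8, numbered 17 to 24. They were 4 of the 12 exposed animals and of 24 animals in all. PCB 52 is a polychlorinated biphenyl, 1 of a class of persistent industrial chemicals. The exposed Sprague-Dawley rats, an outbred laboratory stock, breathed it in a nose-only system for 4 hours a day over 28 days, in air passed over PCB 52-coated glass beads at 12 L/min. Males were 39 days old at the start and females 42 days. The 12 sham animals, numbered 1 to 12, were kept on the same diet and assigned at random with the exposed ones. Odd numbers were males and even numbers were females, so animals 13 to 16 were 2 males and 2 females, and animals 17 to 24 were 4 of each sex. Each library was 1 animal's liver, with no pooling. The labels do not say what the number stands for (an order of exposure, dissection or library preparation), and these cannot be told apart here.

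The 4 animals had been singled out on their expression, by a library axis. The axis came from a principal component analysis of log2 CPM (counts per 1e+06 library counts) inside the 4 combinations of sex and treatment, using the first component. Males were scored with weights learned from females, and females with weights learned from males. The component held 19.8% of the variance within groups in males and 16.7% in females. Animals 13, 14, 15 and 16 scored 9.32, 10.8, 8.31 and 12.7. The scores of animals 17 to 24, in order, were -3.11, -3.51, -6.23, -6.61, -0.44, -0.71, 4.87 and 2.84. Animal 15 was the lowest inside the group at 8.31, and animal 23 the highest exposed animal outside it at 4.87. The other 10 sham animals scored between -7.12 and -1.50 while sham animals 11 and 12 scored 6.98 and 5.30. The axis is thus not confined to exposed animals, and the last animals of each treatment leaned the same way as animals 13 to 16. Because expression chose the animals, the contrast of 13 to 16 with 17 to 24 is given as a description, with no test and no p-value.

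**Figure D1:**
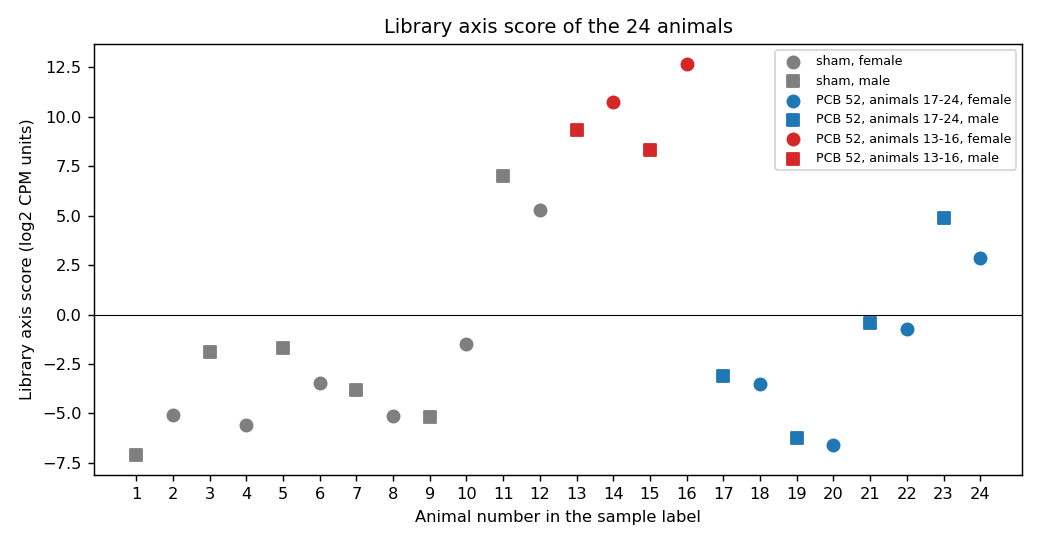
Library axis score (vertical, log2 CPM units) of each of the 24 animals against its number (horizontal). Circles are females, squares are males, and colours give sham animals, animals 13 to 16 and animals 17 to 24. The 4 animals lie between 8.31 and 12.7, and sham animal 11 is the nearest other animal at 6.98.

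Liver is made mostly of hepatocytes, which carry out gluconeogenesis, urea synthesis, lipoprotein secretion and fatty acid oxidation and hold many mitochondria. Oxidative phosphorylation passes electrons along respiratory complexes I to IV and uses the resulting proton gradient to drive ATP synthase. Ribosomal proteins are needed in fixed proportions to build ribosomes. Ubiquitin ligases tag proteins for turnover, and nuclear pores let mRNA leave the nucleus.

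Library totals of the 24 animals lay between 6994832 and 9185511 counts. The mean total was 7797000 ± 320800 (SD, n = 4) in animals 13 to 16 and 8177000 ± 644500 (SD, n = 8) in animals 17 to 24, a difference of -379800. A two-sided exact permutation test within each sex gave p = 0.316, where the smallest possible p was 0.00444. That p is the share of relabellings of the animals with a difference at least as large. All 12 hepatocyte markers were measured, and their summed level was 169600 to 182600 CPM in animals 13 to 16, within the 162300 to 208000 CPM of animals 17 to 24. Taken singly, 10 of the 12 had a log2 fold below 0, with a median of -0.086 (0.034 in females and -0.218 in males). Of the 12, 1 (8.33%) was lower without overlap, against 4.04% of all genes. The summed markers of Kupffer cells (870 to 1209 against 890 to 1198 CPM), sinusoidal endothelium (826 to 962 against 799 to 1016 CPM) and stellate cells (758 to 941 against 713 to 932 CPM) overlapped between the groups. So did those of T and NK cells (32.6 to 59.1 against 36.1 to 56.6 CPM), B cells (4.87 to 10.5 against 5.34 to 8.72 CPM), cholangiocytes (34.6 to 63.8 against 37.2 to 55.9 CPM), red cells (36.1 to 209 against 22.1 to 189.9 CPM), adipocytes (79.4 to 84.5 against 80.7 to 116 CPM) and mesothelium (139.6 to 257.8 against 183.5 to 275.9 CPM). No neutrophil marker passed the low-count filter, and 10 of the 11 with a matched symbol, S100a8 and S100a9 among them, were under 1 CPM in all 12 exposed animals. In bulk tissue, fewer cells of a type and less RNA per cell cannot be told apart.

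A gene was called set apart where, in each sex, every animal of 13 to 16 lay on one side of every animal of 17 to 24, on the same side in both sexes, with a fold of at least 0.5 on the log2 scale. By this rule 72 of 10547 genes were higher in animals 13 to 16 (0.683% of the genes) and 101 were lower (0.958%). Without the fold threshold 395 genes did not overlap and were higher (3.75%) and 426 did not overlap and were lower (4.04%). The median log2 fold was 0.60 over the higher genes and -0.64 over the lower ones, against -0.004 over all genes. Leaving out 1 animal moved the counts most without animal 14, to 154 higher and 216 lower. The shares and medians follow from the choice of animals and are not a result about them. Levels below are CPM scaled with TMM factors, and folds are log2 values from 1 fit with sex as a factor, with their standard errors (SE, 4 against 8 animals).

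The ribosomal protein gene Rps28 was among the lowest in animals 13 to 16. Its level was 9.77 and 12.6 CPM in males 13 and 15 and 20.6 and 14.98 CPM in females 14 and 16. Males 17, 19, 21 and 23 had 34.5, 28.0, 27.8 and 21.8 CPM and females 18, 20, 22 and 24 had 36.4, 31.0, 27.3 and 25.5 CPM, a log2 fold of -1.02 ± 0.16. The groups did not overlap in either sex, and all 4 animals were also below the sham animals, which had 23.1 to 42.0 CPM in males and 25.7 to 47.9 CPM in females. Rpl38, a protein of the large ribosomal subunit, was at 15.6, 11.6, 19.7 and 22.9 CPM in animals 13, 15, 14 and 16, against 23.9 to 33.9 CPM in males and 24.8 to 30.5 CPM in females of 17 to 24, a log2 fold of -0.70 ± 0.15. Rpl41, another large-subunit protein, was at 136.9, 140.2, 175.9 and 145.5 CPM in the same order, against 192.2 to 225.7 and 193.0 to 221.4 CPM, a log2 fold of -0.51 ± 0.08. These 3 were the members set apart among 75 cytosolic ribosomal protein genes, of which 55 lay below 0 and 20 above. Lower without overlap were 12 (16%) and higher 0, against 4.04% and 3.75% of all genes. The list's median was -0.149. As a mean over the list, relative to sham animals of the same sex, animals 13, 14, 15 and 16 stood at -0.243, -0.149, -0.257 and -0.295 (log2 units). Animal 14 thus lay inside the -0.184 to 0.039 of animals 17 to 24. Sham animals lay between -0.196 and 0.313.

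Nuclear-encoded genes of oxidative phosphorylation were mostly lower in animals 13 to 16. Of 74 in the fit, 63 had a fold below 0 and 11 above, and the median was -0.169. Without overlap, 23 (31.1%) were lower and 0 higher, against 4.04% and 3.75% of all genes. Uqcrq, a subunit of respiratory complex III, was at 84.3 and 103.4 CPM in males 13 and 15 and at 112.4 and 97.3 CPM in females 14 and 16. In the order given above, males 17 to 23 had 188.1, 186.2, 152.0 and 135.5 CPM and females 18 to 24 had 159.5, 167.6, 143.5 and 122.1 CPM, a log2 fold of -0.66 ± 0.12. Animals 23 and 24 were the nearest to animals 13 to 16 in their sex, as they were on the library axis. Atp5me, a subunit of ATP synthase, was at 12.0, 11.1, 14.6 and 6.66 CPM in animals 13, 15, 14 and 16, against 18.1 to 23.5 CPM in males and 17.7 to 19.7 CPM in females of 17 to 24, a log2 fold of -0.82 ± 0.15. Uqcr11, another complex III subunit, had a log2 fold of -0.64 ± 0.14, and Cox6a1, a subunit of cytochrome c oxidase (complex IV), one of -0.53 ± 0.09, both set apart. As a mean over the list, relative to sham animals of the same sex, animals 13, 14, 15 and 16 stood at -0.314, -0.171, -0.205 and -0.302 (log2 units). Animals 17 to 24 lay between -0.110 and -0.022 without overlap, and sham animals between -0.163 and 0.255.

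**Figure D2:**
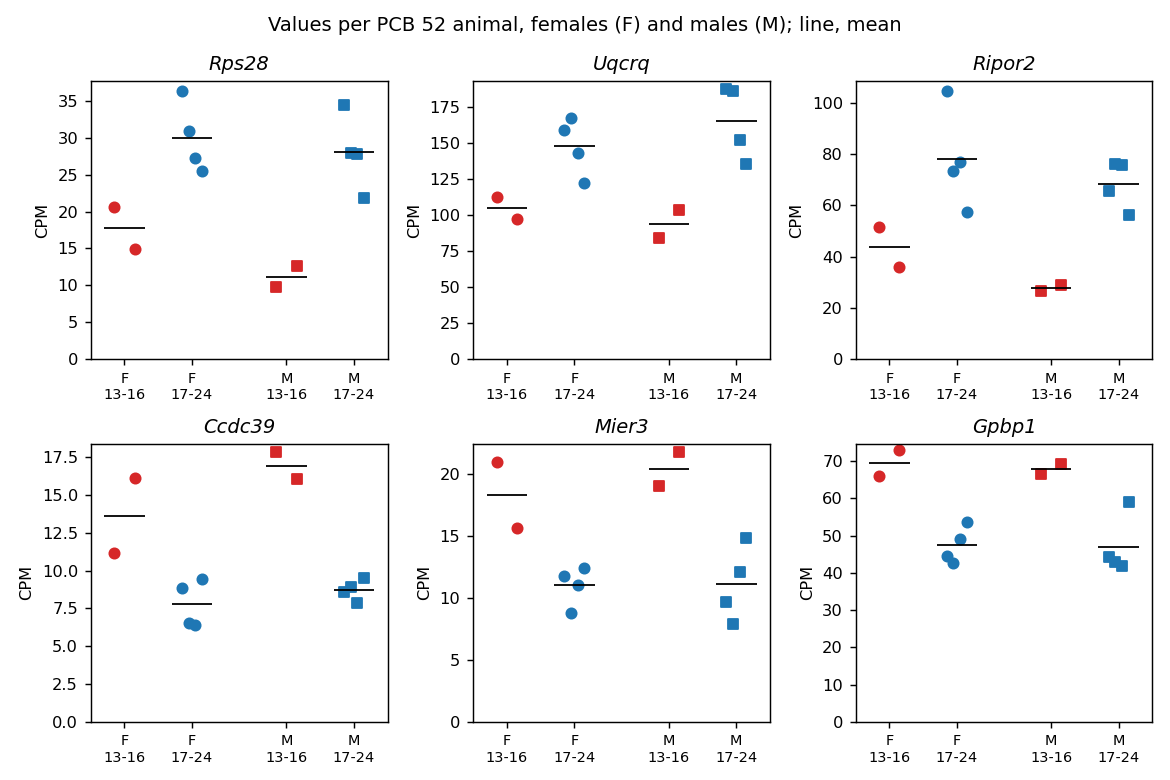
Level in CPM (vertical, starting at 0) of 6 genes in each PCB 52-exposed animal, by sex (F, M) and animal number (horizontal). Points are animals and lines are group means; in every panel animals 13 to 16 lie on one side of animals 17 to 24 of their sex, lower for Rps28, Uqcrq and Ripor2 and higher for Ccdc39, Mier3 and Gpbp1.

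Of the 9 respiratory and ribosomal protein genes set apart lower, 7 had a promoter in the RefSeq table, and 5 of those are printed. The 5 were picked with the motif matches known, to show promoters with and without them, and 3 encode respiratory subunits and 2 ribosomal proteins. Each runs from 250 bases before to 50 bases after the RefSeq start, 5′ to 3′ on the strand of the gene, in build GRCr8, which is not the build of the counts: Uqcrq at chr10:38089929-38090228 (minus strand), Atp5me at chr14:1464610-1464909 (plus), Ndufv3 (a complex I subunit) at chr20:9613536-9613835 (plus), Rpl38 at chr10:100200185-100200484 (plus) and Rps28 at chr7:15311284-15311583 (minus). Capitals mark every match, on either strand, of 5 motifs that were searched. The motif of the ETS family was CCGGAAG. The inner NRF1 motif was GCATGCGC, and the full NRF1 motif, which holds it, had GC before it as well. The motif of YY1 was AAGATGGC. The TATA box was searched as TATAAA.
Uqcrq: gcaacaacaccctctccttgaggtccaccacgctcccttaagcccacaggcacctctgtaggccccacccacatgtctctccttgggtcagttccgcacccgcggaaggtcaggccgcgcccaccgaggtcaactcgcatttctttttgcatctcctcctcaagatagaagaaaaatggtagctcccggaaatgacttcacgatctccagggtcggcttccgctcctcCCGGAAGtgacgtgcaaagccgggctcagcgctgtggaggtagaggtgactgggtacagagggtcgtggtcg
Atp5me: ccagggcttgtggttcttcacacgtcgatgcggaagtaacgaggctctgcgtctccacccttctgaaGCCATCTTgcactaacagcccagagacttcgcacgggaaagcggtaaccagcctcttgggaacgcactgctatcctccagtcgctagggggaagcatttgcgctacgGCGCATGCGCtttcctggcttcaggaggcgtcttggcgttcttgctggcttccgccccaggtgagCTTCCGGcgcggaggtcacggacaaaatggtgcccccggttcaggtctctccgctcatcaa
Ndufv3: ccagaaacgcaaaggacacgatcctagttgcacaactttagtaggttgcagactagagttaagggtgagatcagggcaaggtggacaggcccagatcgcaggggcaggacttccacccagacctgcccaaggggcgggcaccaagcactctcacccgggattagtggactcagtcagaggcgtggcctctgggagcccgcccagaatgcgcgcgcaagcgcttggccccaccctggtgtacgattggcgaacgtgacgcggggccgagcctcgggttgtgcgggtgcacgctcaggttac
Rpl38: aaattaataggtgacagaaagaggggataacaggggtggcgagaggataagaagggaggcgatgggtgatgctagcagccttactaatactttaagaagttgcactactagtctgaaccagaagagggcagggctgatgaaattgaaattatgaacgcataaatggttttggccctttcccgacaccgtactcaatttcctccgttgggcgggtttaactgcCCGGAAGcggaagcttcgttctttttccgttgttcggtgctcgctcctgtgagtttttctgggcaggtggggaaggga
Rps28: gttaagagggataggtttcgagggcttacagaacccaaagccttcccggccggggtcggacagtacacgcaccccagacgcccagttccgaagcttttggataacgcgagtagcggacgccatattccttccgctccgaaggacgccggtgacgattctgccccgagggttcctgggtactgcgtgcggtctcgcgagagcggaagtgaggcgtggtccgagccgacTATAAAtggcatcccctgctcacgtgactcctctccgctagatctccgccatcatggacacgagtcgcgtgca
Over all 7 promoters, the ETS letters occurred in 5 (Uqcrq, Atp5me, Rpl38, Ndufa13 and Rpl41), the NRF1 and YY1 letters in Atp5me and the TATA letters in Rps28, and Ndufv3 held none of them. Among 65 of the 74 oxidative phosphorylation genes with a promoter in the table, 32.3% held the ETS letters, against 18.5% of the genes in the fit and 9.22% of all 27457 promoters. The YY1 letters were in 13 of the 65, against 5.70% and 3.44%. For the inner NRF1 letters the shares were 13.8%, 5.10% and 2.66%, for the full NRF1 letters 6.15%, 1.96% and 0.932%, and for TATA 7.69%, 6.91% and 14.3%. Those shares describe the list whatever its members' values. Of the genes set apart higher, 61 of 72 had a promoter, and 11.5% held ETS, 3.28% YY1, 4.92% inner NRF1, 1.64% full NRF1 and 9.84% TATA letters. Only 79.2% of the genes set apart lower and 78.7% of the ribosomal protein genes had a promoter, under the 80% required, so their shares are void. The 7 of 9 genes looked up are under that bar too, so their matches are a listing and give no share for the lower genes. A match is a description, not a binding site or a cause.

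Mitochondrial ribosomal proteins, which build the ribosomes inside mitochondria, had 45 of 70 members below 0 and a median of -0.09 (-0.058 without animal 19). Of these, 13 (18.6%) were lower without overlap and 1 (1.43%) higher, against 4.04% and 3.75% of all genes. The list score relative to sham was -0.147, -0.075, -0.11 and -0.257 in animals 13, 14, 15 and 16. Animal 14 lay inside the -0.099 to 0.048 of animals 17 to 24. Mrpl34 was set apart, at 11.3, 13.95, 8.92 and 10.4 CPM in animals 13, 15, 14 and 16 against 15.8 to 21.6 CPM in males and 13.1 to 16.8 CPM in females, a log2 fold of -0.64 ± 0.12. Mrpl14 (-0.50 ± 0.14) and Mrpl2 (-0.46 ± 0.11) did not overlap between the groups, with folds under the threshold for set apart.

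Among the other genes set apart lower, Ripor2 was at 26.4 and 29.1 CPM in males 13 and 15 and at 51.5 and 35.9 CPM in females 14 and 16. Males 17 to 23 had 65.8, 76.0, 75.6 and 56.2 CPM and females 18 to 24 had 104.6, 73.4, 76.9 and 57.4 CPM, a log2 fold of -1.06 ± 0.17. Its 4 values were below all sham animals, which had 61.0 to 86.8 CPM in males and 68.6 to 111.7 CPM in females. Klf2, a transcription factor known for its role in endothelium, was at 4.69, 5.00, 5.33 and 7.04 CPM in animals 13, 15, 14 and 16 against 6.94 to 11.6 and 7.56 to 14.7 CPM, a log2 fold of -0.86 ± 0.20. Female 16 and female 24 were only 7.04 and 7.56 CPM apart, so the gap was narrow in females. Mmd2 had the largest fold of the named genes set apart lower, -1.21 ± 0.32, with 3.91 and 3.95 CPM against 5.36 to 11.6 CPM in males and 8.92 and 8.71 CPM against 12.9 to 35.5 CPM in females. Its levels in male sham animals (2.53 to 11.3 CPM) spanned those of animals 13 and 15. Morn5 (-0.98), Dusp23 (-0.98), Mcrip2 (-0.96) and Inafm1 (-0.89) completed the lower genes named by size with Rhobtb1, described below.

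The genes set apart higher included Ccdc39, which encodes a coiled-coil protein of motile cilia. Its level was 17.8 and 16.1 CPM in males 13 and 15 and 11.2 and 16.1 CPM in females 14 and 16. Males 17 to 23 had 8.57, 8.91, 7.85 and 9.51 CPM and females 18 to 24 had 8.86, 6.57, 6.41 and 9.45 CPM, a log2 fold of 0.88 ± 0.14. All 4 values were above the sham animals, whose highest was 9.78 CPM in males and 9.11 CPM in females. Mier3, a nuclear protein of the MIER corepressor family, was at 19.01, 21.7, 20.9 and 15.6 CPM in animals 13, 15, 14 and 16 against 7.89 to 14.8 and 8.76 to 12.4 CPM, a log2 fold of 0.80 ± 0.15. Hells, a chromatin remodelling helicase, had a fold of 0.79 ± 0.21 that differed in size between the animals, with 54.8 CPM in female 14 and 21.1 CPM in female 16 against 15.5 to 19.3 CPM in females 18 to 24. Without animal 14 the fold of Hells was 0.404, under the threshold for set apart, and without animal 16 it was 0.935. Socs2, a feedback inhibitor of growth hormone signalling, was at 21.8, 21.5, 47.8 and 29.8 CPM in animals 13, 15, 14 and 16 against 6.72 to 19.9 and 9.49 to 28.5 CPM, a log2 fold of 0.80 ± 0.32. Sham levels of Socs2 (14.8 to 36.3 CPM in males and 5.49 to 34.2 CPM in females) covered 3 of the 4 animals, female 14 being above them. Fam117b (0.73), Rp2 (0.72), Taf1d (0.70), Katnbl1 (0.69), Rnf138 (0.69) and Nek1 (0.69) were the other higher genes named by size.

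Large ubiquitin ligases, cullins and deubiquitinases, which attach or remove ubiquitin on other proteins, leaned higher. Of 34 in the fit, 30 lay above 0 and 4 below, and the median was 0.212. Higher without overlap were 7 (20.6%) and lower 0, against 3.75% and 4.04% of all genes. Usp1, a deubiquitinase of DNA repair proteins, was at 24.5, 23.8, 19.5 and 24.2 CPM in animals 13, 15, 14 and 16 against 12.9 to 21.2 CPM in males and 13.9 to 19.4 CPM in females, a log2 fold of 0.50 ± 0.13. The gap in females was narrow, at 19.45 CPM in animal 14 and 19.37 CPM in animal 22. Cul5 (0.54 ± 0.12) and Cul3 (0.44 ± 0.10), scaffolds of cullin-RING ligases, overlapped between the groups, and Ube3a (0.39 ± 0.11) did not. The list score relative to sham was 0.223, 0.145, 0.269 and 0.331 in animals 13, 14, 15 and 16 and -0.049 to 0.137 in animals 17 to 24.

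Genes of mRNA export and the nuclear pore had a median of 0.112, with 24 of 36 above 0. Of these 36, 7 (19.4%) were higher without overlap and 0 lower, against 3.75% and 4.04% of all genes. The list score relative to sham was 0.105, 0.019, 0.126 and 0.094 in animals 13, 14, 15 and 16. Animal 14 lay inside the -0.049 to 0.021 of animals 17 to 24. Nxt2, a cofactor of the mRNA export receptor, was set apart at 0.51 ± 0.13. Nup54 (0.48 ± 0.13) and Ranbp2 (0.44 ± 0.08), both nuclear pore proteins, and Thoc2 (0.40 ± 0.09), a subunit of the THO export complex, did not overlap. Chromatin writers and remodelers had a median of 0.105 (0.06 without animal 15), 36 of 51 above 0 and 0 set apart. Of its members 5 (9.80%) were higher and 2 (3.92%) lower without overlap, against 3.75% and 4.04% of all genes. Hdac2, a histone deacetylase, had a fold of 0.45 ± 0.12, and Ehmt2, a histone H3 lysine methyltransferase, was lower without overlap at -0.35 ± 0.09. Gpbp1, a promoter-binding protein, was set apart at 66.5, 69.1, 65.9 and 73.1 CPM in animals 13, 15, 14 and 16 against 41.9 to 59.0 and 42.7 to 53.8 CPM, a log2 fold of 0.54 ± 0.10.

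**Figure D3:**
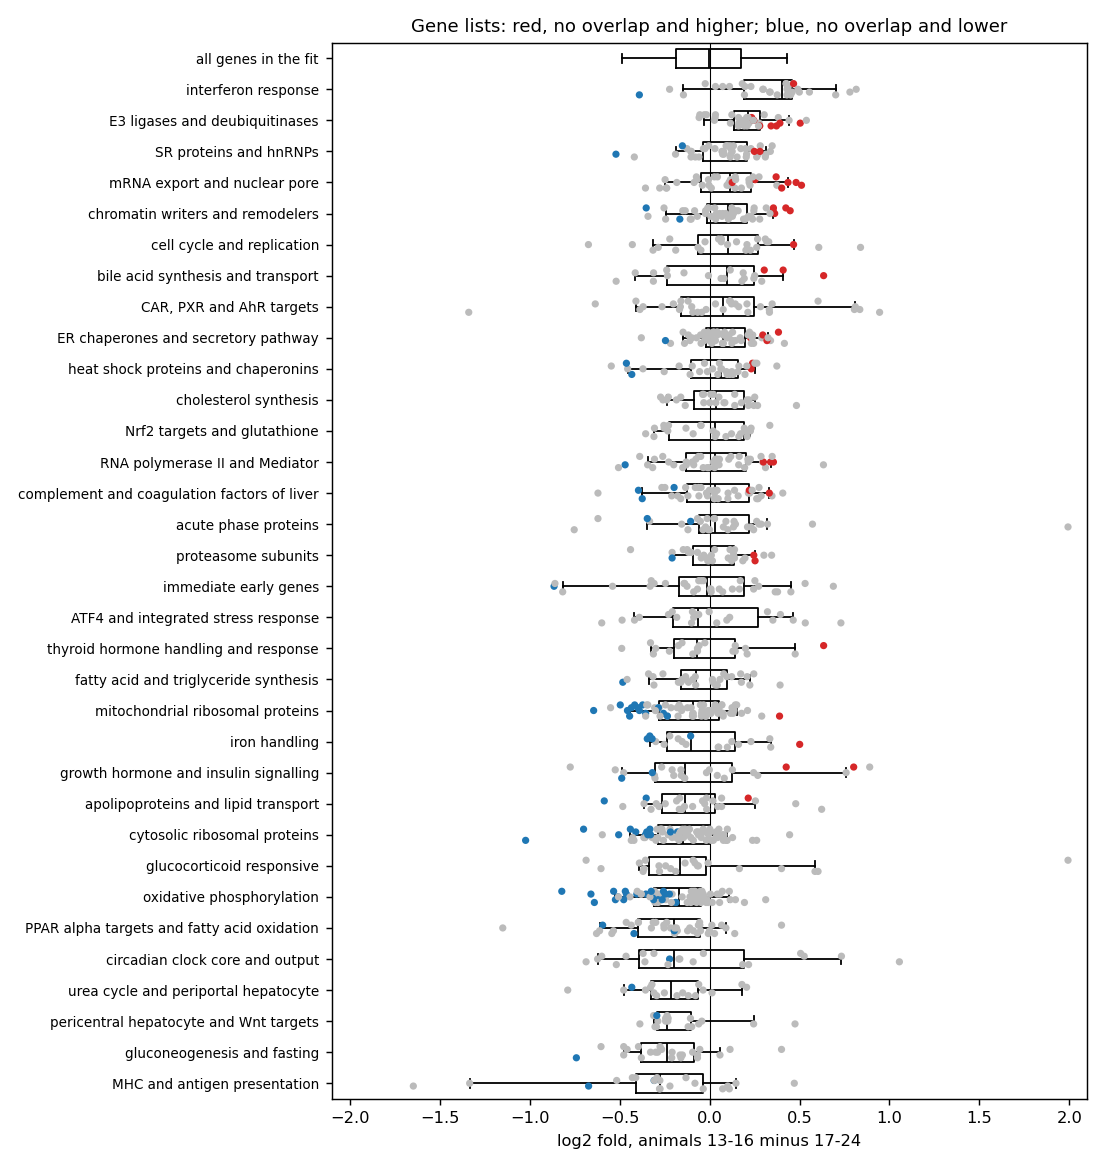
Log2 fold of animals 13 to 16 against 17 to 24 (horizontal) for the members of each gene list and for all genes in the fit (vertical). Boxes give the quartiles and median, whiskers the 5th and 95th percentiles, points the members; red points are higher and blue points lower without overlap, and 23 of 74 oxidative phosphorylation genes are blue.

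Some liver metabolic lists leaned lower, with few members set apart. The hepatocyte markers also leaned lower (10 of 12 below 0), and their part in these lists was not tested. Other metabolic lists did not lean lower. Cholesterol synthesis had 17 members above 0, 10 below and a median of 0.035 (-0.146 in females and 0.19 in males). Fatty acid and triglyceride synthesis had 14 above, 15 below and a median of -0.077 (-0.184 in females and 0.071 in males). The preset genes Acly (0.224 ± 0.225) and Fasn (0.392 ± 0.319) overlapped, with folds below 0 in females and above 0 in males. Of 24 genes of gluconeogenesis and fasting, 21 lay below 0 and the median was -0.238 (-0.114 in females alone and -0.247 in males alone). The list score relative to sham was -0.231, -0.599, -0.35 and -0.285 in animals 13, 14, 15 and 16. It overlapped the -0.463 to 0.171 of animals 17 to 24. Gpt, an alanine aminotransferase, was the only member without overlap (4.17% of the list, against 4.04% of all genes). Its level was 128.1, 140.2, 51.2 and 65.2 CPM in animals 13, 15, 14 and 16 against 158.9 to 232.1 CPM in males and 81.3 to 143.9 CPM in females, a log2 fold of -0.74 ± 0.17. Pck1, the enzyme that commits carbon to gluconeogenesis, had a fold of -0.33 ± 0.15 over both sexes. Males 13 and 15 were at 2821 and 2831 CPM, below the 3707 to 4993 CPM of males 17 to 23, whereas females 14 and 16 at 2210 and 2818 CPM lay within the 2113 to 3665 CPM of females 18 to 24. Of 39 genes of fatty acid oxidation and PPAR alpha, 33 lay below 0, the median was -0.195 and 3 (7.69%) were lower without overlap, against 4.04% of all genes. The list score was -0.363, -0.256, -0.226 and -0.164 in animals 13, 14, 15 and 16, overlapping the -0.295 to 0.124 of animals 17 to 24. Ppara itself, the lipid-sensing nuclear receptor, was set apart at 51.3, 52.5, 39.5 and 43.4 CPM in animals 13, 15, 14 and 16 against 74.7 to 120.4 and 47.7 to 68.1 CPM, a log2 fold of -0.59 ± 0.14. Against sham animals its fold was -0.30 ± 0.16 in animals 13 to 16 and 0.29 ± 0.12 in animals 17 to 24, so the sham mean lay between the groups. Single sham animals, at 28.5 to 62.1 CPM in females and 53.6 to 79.4 CPM in males, overlapped animals 17 to 24 in both sexes and spanned animals 14 and 16 in females.

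Apoe, the apolipoprotein by which remnant lipoproteins are taken up, was set apart among 27 apolipoprotein and lipid transport genes (median -0.139, 19 below 0; -0.029 without animal 16 and -0.088 without animal 13). Its level was 10280, 10830, 11600 and 10050 CPM in animals 13, 15, 14 and 16 against 12070 to 19120 CPM in males and 13370 to 18000 CPM in females, a log2 fold of -0.59 ± 0.13. The score of the apolipoprotein list was -0.145, -0.089, -0.092 and -0.242 in animals 13, 14, 15 and 16. It overlapped the -0.206 to 0.084 of animals 17 to 24. Pericentral genes (16 of 18 below 0, median -0.234) and urea cycle or periportal genes (15 of 18 below 0, median -0.216), which mark opposite ends of the liver lobule, both leaned lower. The pericentral median was -0.072 in females and -0.242 in males, and the list scores of animals 13 (-0.094) and 14 (0.019) lay inside the -0.17 to 0.2 of animals 17 to 24. The periportal median was -0.22 in females and -0.143 in males, and all 4 scores (-0.269 to -0.027) lay inside the -0.285 to 0.246 of animals 17 to 24. Bile acid genes had a median of 0.098 (-0.022 in females alone and 0.055 in males alone). Of 20 in the fit, 3 (15%) were higher and 0 lower without overlap, against 3.75% and 4.04% of all genes. Slco1a4, an uptake transporter, was set apart at 399.8, 393.3, 363.6 and 287.1 CPM in animals 13, 15, 14 and 16 against 198.1 to 368.8 and 182.1 to 231.3 CPM, a log2 fold of 0.63 ± 0.14. Of 19 iron handling genes, 9 lay above 0 and 10 below, with a median of -0.105. Without overlap 4 (21.05%) were lower and 1 (5.26%) higher, against 4.04% and 3.75% of all genes. Hamp, the iron hormone hepcidin, was lower without overlap at -0.35 ± 0.12, while Ireb2, an iron regulatory protein, was set apart higher at 0.50 ± 0.09.

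Further lists also leaned one way with list scores that overlapped between the groups. Interferon response genes had a median of 0.401, with 28 of 32 above 0. Only 1 (3.125%) was higher and 1 (3.125%) lower without overlap, near the 3.75% and 4.04% of all genes. The list score was -0.01, 0.491, 0.327 and 0.486 in animals 13, 14, 15 and 16, so animal 13 was near the sham mean, and animals 17 to 24 spanned -0.322 to 0.392. The median was 0.543 in females and 0.127 in males. Mx1, an antiviral GTPase, was at 19.5, 27.5, 24.3 and 24.2 CPM in animals 13, 15, 14 and 16 against 14.5 to 27.4 and 6.14 to 14.4 CPM. MHC and antigen presentation genes had a median of -0.276 with 16 of 21 below 0, and of -0.179 without animal 14. Of these genes 2 (9.52%) were lower without overlap, against 4.04% of all genes, and 1 was set apart lower. The list score was -0.517, -0.288, -0.79 and 0.196 in animals 13, 14, 15 and 16, and -0.423 to 0.361 in animals 17 to 24. The class II gene RT1-Bb was listed at 0 in animals 13, 14 and 15 and at 12.0 CPM in animal 16, and also at 0 in animals 18, 19 and 20, so it split both groups. Clock genes had a median of -0.196, at -0.021 in females and -0.343 in males, and at -0.103 without animal 13. Of 20 in the fit, 14 lay below 0 and 6 above. Dbp, a clock output factor, had a fold of -0.60 ± 0.17 and Per1, a core clock repressor, -0.69 ± 0.38, both with overlap. Bmal1 leaned the other way at 0.73 ± 0.45 with overlap (-0.353 in females and 1.661 in males). With 1 animal left out, the fold of Npas2 was 0.604 to 1.403, but over all alternative settings it was -0.221 to 1.93, so its sign changed. That of Nr1d1 was -0.136 to 0.073 over the alternative settings. Glucocorticoid-responsive genes had a median of -0.162 with 17 of 22 below 0 (-0.074 without animal 15), and Tat, a tyrosine aminotransferase, had a fold of -0.60 ± 0.29 with overlap.

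Among genes of foreign-compound metabolism, 19 of 35 lay above 0 and 16 below, and the median was 0.076 (0.19 in females and -0.065 in males). Members without overlap numbered 0, where 3.75% of all genes were higher and 4.04% lower without overlap. Cyp1a1, the classic aryl hydrocarbon receptor target, was at 1.17, 1.32, 2.97 and 1.54 CPM in animals 13, 15, 14 and 16 against 3.18 to 5.40 CPM in males and 2.18 to 8.24 CPM in females. Males did not overlap and females did, with a log2 fold of -1.34 ± 0.36 at a low level. Cyp2b2, a target of the receptor CAR that is nearly identical to Cyp2b1 and so counted with uncertainty, was at 86.5 CPM in female 14 and 1.67 CPM in female 16, against 1.21 to 14.3 CPM in females 18 to 24. In males it was at 92.7 and 94.1 CPM in animals 13 and 15, within the 63.1 to 121.5 CPM of the other exposed males.

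Both groups of exposed animals were also set beside the 12 sham animals, in 1 fit of 24 libraries. These contrasts share the sham libraries, and the list medians are given side by side. Genes set apart higher had a median log2 fold against sham of 0.529 in animals 13 to 16 and -0.104 in animals 17 to 24, and genes set apart lower one of -0.629 and 0.026. In 23 of the 72 higher genes and 46 of the 101 lower genes, animals 13 to 16 lay beyond every sham animal of their sex in the same direction. Over all 10547 genes the shares were 3.94% higher and 3.1% lower, and the genes set apart had been chosen with animals 13 to 16 at one end. Animals 17 to 24, with 4 animals of each sex to clear instead of 2, lay beyond every sham animal in 0 of all 10547 genes in either direction, so their count cannot be set against that of animals 13 to 16. Oxidative phosphorylation genes had medians of -0.217 and -0.055, cytosolic ribosomal protein genes -0.198 and -0.07, and ubiquitin ligases and deubiquitinases 0.225 and 0.043. Sham animals 11 and 12, which had the highest axis scores among sham animals and were part of the data that defined the axis, scored 0.23 and 0.141 over the genes set apart higher, and the other sham animals -0.176 to 0.085. Over the genes set apart lower they scored -0.169 and -0.217, and the others -0.062 to 0.1. Animals 13 to 16 scored 0.465 to 0.598 and -0.657 to -0.531. These scores are not independent of the choice of animals.

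**Figure D4:**
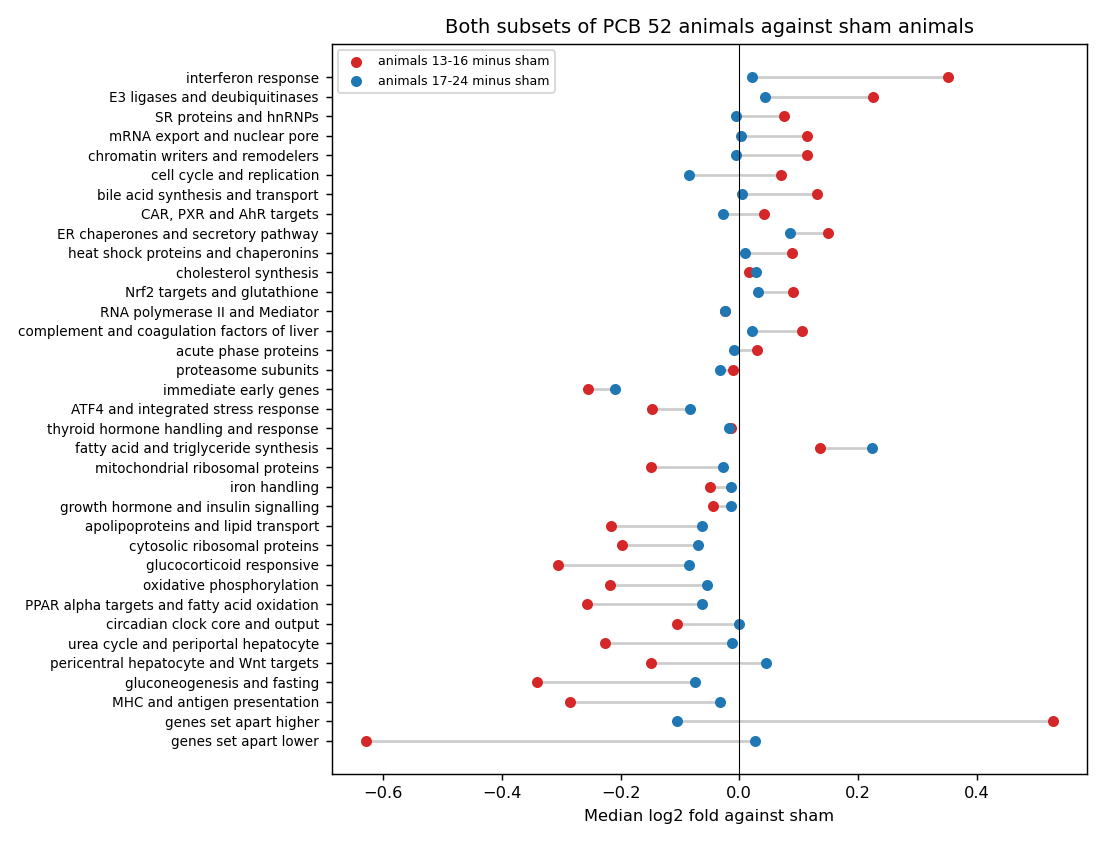
Median log2 fold against sham animals (horizontal) of each gene list and of the genes set apart (vertical), for animals 13 to 16 in red and animals 17 to 24 in blue. The genes set apart lie at 0.529 and -0.629 in animals 13 to 16 and at -0.104 and 0.026 in animals 17 to 24.

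The one expression contrast tested was whether the difference between animals 13 to 16 and 17 to 24 was unequal in females and males. It is another contrast than the one the animals were chosen on, but it rests on the same expression values of both sexes, so its p-values are not independent of that choice. With edgeR's quasi-likelihood test, 1 of 10718 genes passed an adjusted p of 0.05 (0.00933% of the genes), and 559 had an unadjusted p under 0.05. DESeq2 called 8. The gene was Rhobtb1. Its level was 19.4 and 18.6 CPM in males 13 and 15 and 54.2, 63.2, 66.2 and 73.8 CPM in males 17 to 23, and 50.3 and 48.7 CPM in females 14 and 16 against 67.8, 54.5, 56.3 and 62.5 CPM in females 18 to 24. All 4 animals were below the others of their sex, with a log2 fold of -1.76 in males and -0.29 in females. The fold was higher in females by 1.48 ± 0.19 (SE, edgeR quasi-likelihood adjusted p = 0.00604). Without male 13 the edgeR adjusted p was 0.105 and without male 15 it was 0.0829, and leaving out any other animal gave 0.00272 to 0.0247. Sham males had 26.6 to 54.4 CPM and sham females 50.7 to 84.4 CPM.

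**Figure D5:**
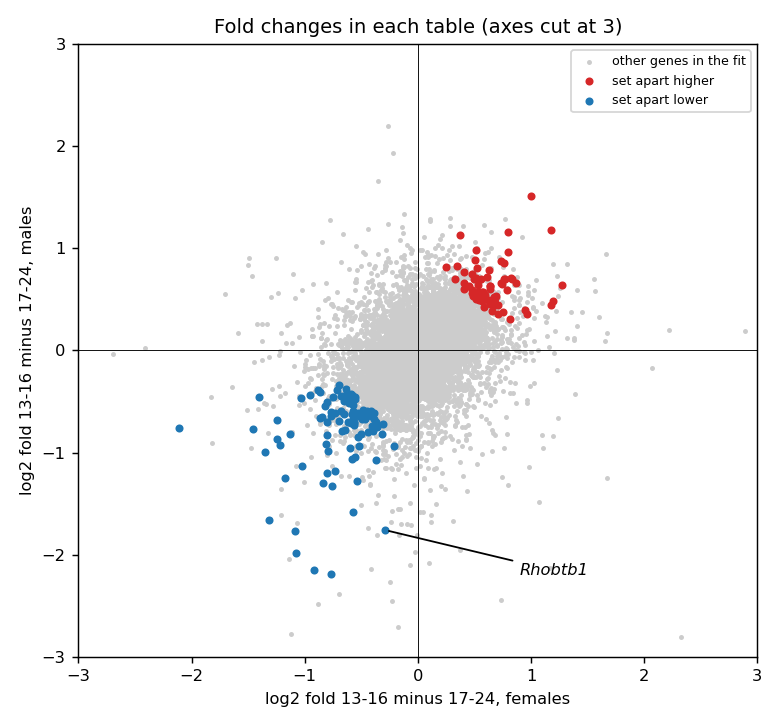
Log2 fold of animals 13 to 16 against 17 to 24 in females (horizontal) and males (vertical), 1 point per gene. Red and blue points are genes set apart higher and lower, which lie in the same-sign quadrants by construction, and Rhobtb1 is labelled at -0.29 in females and -1.76 in males. Points beyond 3 in size are not drawn.

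Across 10236 genes with a fold in both sexes, the folds had a Pearson r of 0.357 and a Spearman coefficient of 0.441, and 68.7% had the same sign. This is a description across genes, which are not independent replicates and share libraries within each sex, in animals chosen by an axis that was built from both sexes.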

How the data were processed

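Liver RNA of 24 rats was measured by RNA sequencing, 1 library per animal. The values are gene counts, deposited by the authors without normalization in 1 table per sex. The submitters' processing notes name FastQC, HISAT2 and build rn6. How reads were counted, with which strand setting and annotation, is not given in the sources used here. The labels' protocols name poly(A) capture or rRNA removal, so overlapping, antisense and near-identical genes are uncertain. Of 15319 gene IDs, 15230 matched a RefSeq symbol (GRCr8). The 89 others stayed in the fits (up to 2.30% of counts).

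Both tables were joined by gene ID. Folds came from edgeR 4.0.16 (R 4.3.3, TMM, minimum count 10, minimum total 15, robust quasi-likelihood fit, sex as a factor) on 12 exposed libraries, leaving 10547 genes. The interaction fit kept 10718 genes, with Benjamini-Hochberg adjustment. List scores are means of log2(CPM + 0.5) minus the sham mean of the same sex. Same-group libraries differed by more than sampling noise (lowest chi-square per degree of freedom 6.68), and the self-test on simulated counts was passed. The animals, the 45 gene lists and the named genes (10 set apart each way by size at 5 CPM or more, up to 4 per list, and preset genes) were chosen with earlier results of these data known. All 5 promoter motifs searched are reported. Protein length was not used here. Alternatives included DESeq2 1.42.0, limma 3.58.1 voom, other scalings and filters, and leaving out each animal.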

Additional observations from a re-analysis of the deposited data

Results flagged for a closer look

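Groups of 4 exposed animals of one sex (17 to 24) were checked for the preset genes and the named genes set apart. Of 116 groups, 9 had an animal far from the other 3 by Dixon's 95% criterion. Chance flags about 1 in 20 groups. Among females, animal 20 was low for Socs2 (9.49 CPM, the others 26.7 to 28.5) and high for Fasn (1300 CPM, the others 904 to 949) and Hamp (720 CPM, the others 442 to 467). Female 22 was high for Ppara (68.1 CPM, the others 47.7 to 51.0) and female 24 for Nqo1 (41.5 CPM, the others 21.8 to 22.9). Among males, animal 23 was high for Rnf138 (7.07 CPM, the others 4.88 to 5.09) and Gpbp1 (59.0 CPM, the others 41.9 to 44.3) and low for Hamp (364 CPM, the others 428 to 438). Male 21 was low for Cyp2b2 (63.1 CPM, the others 118 to 122). Animal 23 lay toward animals 13 to 16 for all 3 of its genes, and it had the highest library axis score of animals 17 to 24. Rnf138 and Gpbp1 were genes set apart, and the axis rests on the same expression values. The match is thus not independent of the choice of animals. The difference between the sexes in Rhobtb1 (1.48 on the log2 scale, females minus males) was also marked, since the interaction passed its test.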

How the results depend on the processing

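With a fold of at least 0.25, 326 genes were set apart higher and 362 lower, and with at least 1, 3 and 15. Under 7 other scalings, filters and tools and another overlap rule the counts were 59 to 84 higher and 79 to 113 lower. With library totals alone the counts were 84 and 79. Leaving out 1 animal gave 71 to 154 higher and 105 to 216 lower, highest without animal 14, and fewer animals make a lack of overlap easier by construction. Higher counts over 1.5 times came without animals 13 (137), 14, 15 (125), 16 (135), 23 (113) and 24 (121), and lower counts without 13 (180), 14, 16 (191) and 24 (155). In the female table alone the median was 0.057 for chromatin genes and -0.021 for clock genes. In the male table alone the medians were -0.213 for oxidative phosphorylation, 0.181 for mRNA export, 0.137 for chromatin, 0.127 for interferon and -0.343 for clock genes. With 1 animal left out the medians ranged from -0.209 to -0.153 for oxidative phosphorylation, -0.217 to -0.107 for cytosolic and -0.125 to -0.058 for mitochondrial ribosomal proteins, 0.096 to 0.146 for mRNA export, 0.06 to 0.108 for chromatin, -0.26 to -0.103 for clock and -0.166 to -0.029 for apolipoprotein genes. The interaction count was 8 with DESeq2 and 0 to 4 with 1 animal left out (0 without animal 13, 4 without 14, 2 without 16 or 21). The cause of these shifts was not tested. None of the 13 list medians recomputed under these settings changed sign. No paired analysis was possible because animals 13 to 16 and 17 to 24 share no animal number.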
